A study of Equus caballus with 20 samples.

Results

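The miRNA cargo of extracellular vesicles in mare follicular fluid was compared between follicles about to ovulate (impending ovulation, IMP) and postdeviation follicles of 26 to 29 mm (PostDEV). Both groups were taken by their labels, as the 4 IMP and the 4 PostDEV libraries among the 20 libraries and 5 stages of the series. The miRNAs compared were the 207 names, of 686 in the table, whose value was above 0 in at least 4 of these 8 libraries. IMP follicles are defined in the labels by signs of imminent ovulation, with no diameter. PostDEV follicles are those sampled after deviation, the point at which the future ovulatory follicle outgrows its companions. The study used 19 mares of 8 to 14 years, whose follicles of 6 mm or more had been ablated on day 10 or 11 of the cycle so that a new wave grew, and the fluid was aspirated from the living animal. No label says which mare a library came from, and 20 libraries from 19 mares mean that at least 1 mare gave more than 1; p-values therefore describe the variation among libraries.

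Vesicles in follicular fluid are small membrane-bound particles released by the cells that line the follicle and, in part, brought in from blood. They carry miRNAs, short RNAs that lower the output of the messenger RNAs they pair with, and can deliver them to granulosa and cumulus cells. In the mare, the step from a growing dominant follicle to one about to ovulate covers the long rise of luteinizing hormone (LH), the shift of granulosa cells from estradiol to progesterone, expansion of the cumulus, a stronger blood supply to the theca, and thinning of the follicle wall. In such a bulk sample of vesicles, more vesicles from a cell type and more miRNA per vesicle cannot be told apart.

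The deposited values behave as whole reads multiplied by 1 factor per library and are called scaled reads here. The 8 libraries held 514949 recovered miRNA reads. They numbered 56866, 29862, 80013 and 88126 in the IMP libraries, and 56522, 89957, 58485 and 55118 in the PostDEV libraries. A single read was worth 10.6 to 28.5 scaled reads in IMP and 10.6 to 17.9 in PostDEV, so a miRNA near these values rests on a read or so. Depth did not separate the stages (63717 ± 26169 reads in IMP and 65021 ± 16682 in PostDEV, SD, n = 4 each, exact two-sided permutation p = 0.857). The number of miRNAs above 0 was 200.5 ± 24.2 in IMP and 202 ± 10.1 in PostDEV libraries (SD, n = 4 each, exact permutation p = 0.971). The design allows no exact p below 0.0286.

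None of the 207 miRNAs differed between the stages at the adjusted threshold. With limma on log2(scaled reads + 1), fitted over all 20 libraries, 0 of 207 (0%) passed a Benjamini-Hochberg adjusted p of 0.05, and the smallest adjusted p was 0.239. At an unadjusted p under 0.05 there were 19 miRNAs, 13 with higher and 6 with lower values in IMP. Count tests on the recovered reads gave 0 calls with edgeR, with 21 miRNAs at an unadjusted p under 0.05, and 4 calls with DESeq2, with 22. The 4 DESeq2 calls were miR-155, miR-200c, miR-34c and miR-96, all higher in IMP. Fitted differences were centred near 0, with 106 above and 101 below, a median of 0.08 log2 and an interquartile range of -0.60 to 0.85.

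**Figure D1:**
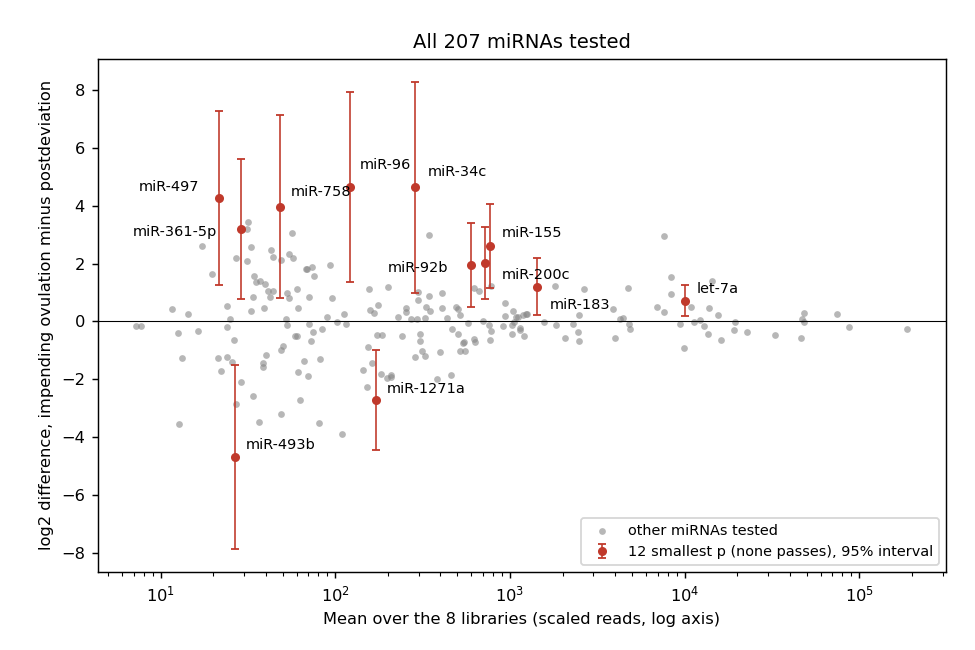
Log2 difference of each of the 207 miRNAs, IMP minus PostDEV, from the limma fit, against its mean over the 8 libraries in scaled reads (log axis). Red points are the 12 miRNAs of smallest p with 95% intervals, and grey points the rest; no miRNA passed the adjusted threshold, and the differences fan out as the mean drops.

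What the data could show depended on abundance. The median half-width of the 95% interval was 2.01 log2, with 1.16 for the 125 miRNAs above 0 in all 8 libraries and 3.47 for the other 82. The interval lay wholly within a 2-fold change in either direction, that is between -1 and 1 log2, for 22 of the 207 miRNAs (10.6%), and for 18 of the 50 most abundant. For the other miRNAs the interval reached past 2-fold on at least one side, so a difference of that size was not shown to be absent.

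Libraries of a stage were about as alike as libraries of different stages. Spearman's rho over the 207 miRNAs ranged from 0.786 to 0.869 between IMP libraries and from 0.830 to 0.911 between PostDEV libraries, with medians of 0.839 and 0.862. Across the stages it ranged from 0.770 to 0.905, with a median of 0.830 over 16 pairs of libraries. These values describe likeness across miRNAs and share the same libraries, so no p is given.

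The leading 10 miRNAs were abundant in every library of both stages, and only miR-215 among them had groups that did not overlap. miR-148a, a miRNA common in secreted fluids such as milk, took the largest share, 18.6 ± 2.10% of the scaled reads in IMP and 22.2 ± 5.94% in PostDEV (SD, n = 4 each). Its level was 168561, 143183, 211288 and 156324 scaled reads in IMP, against 185728, 179431, 292428 and 167125 in PostDEV. The groups overlapped, and the difference was -0.26 log2 with a 95% interval of -0.95 to 0.44 (limma adjusted p = 0.817). The 10 most abundant miRNAs of each library together took 66.4 ± 2.35% in IMP and 69.9 ± 1.92% in PostDEV (SD, n = 4 each, exact two-sided permutation p = 0.0857, adjusted over 4 library measures 0.343).

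Several of these abundant miRNAs had intervals tight enough to bound the difference. miR-423-5p had 56699, 43548, 53895 and 42118 scaled reads in IMP, against 44971, 43586, 44997 and 47937 in PostDEV, a difference of 0.10 log2 (95% interval -0.44 to 0.65). miR-10b, encoded in a HOX gene cluster, had 54745, 61930, 43611 and 34323 in IMP, against 40956, 51203, 57909 and 42650 in PostDEV, a difference of -0.01 log2 (-0.82 to 0.81). miR-128 had 21952, 22030, 18816 and 15006 in IMP, against 18967, 24173, 16470 and 18942 in PostDEV, a difference of -0.02 log2 (-0.63 to 0.60). For all 3 the groups overlapped, and each interval excludes a 2-fold difference in either direction.

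For miR-99a, miR-10a and miR-22 the interval reached or nearly reached a 2-fold difference on one side. miR-99a, which lies in the cluster of let-7c, had 53478, 29127, 41186 and 28684 scaled reads in IMP, against 48943, 61887, 55422 and 53582 in PostDEV. Of the 4 IMP libraries 3 lay below all 4 PostDEV libraries, and the difference was -0.57 ± 0.38 log2 (SE, limma adjusted p = 0.613). miR-10a, the HOX cluster relative of miR-10b, averaged 52998 ± 6112 in IMP and 43383 ± 7101 in PostDEV (SD, n = 4 each), a difference of 0.30 ± 0.41 log2 (SE, limma adjusted p = 0.834). miR-22 averaged 19755 ± 3707 in IMP and 25804 ± 7756 in PostDEV (SD, n = 4 each), with a limma adjusted p of 0.658.

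**Figure D2:**
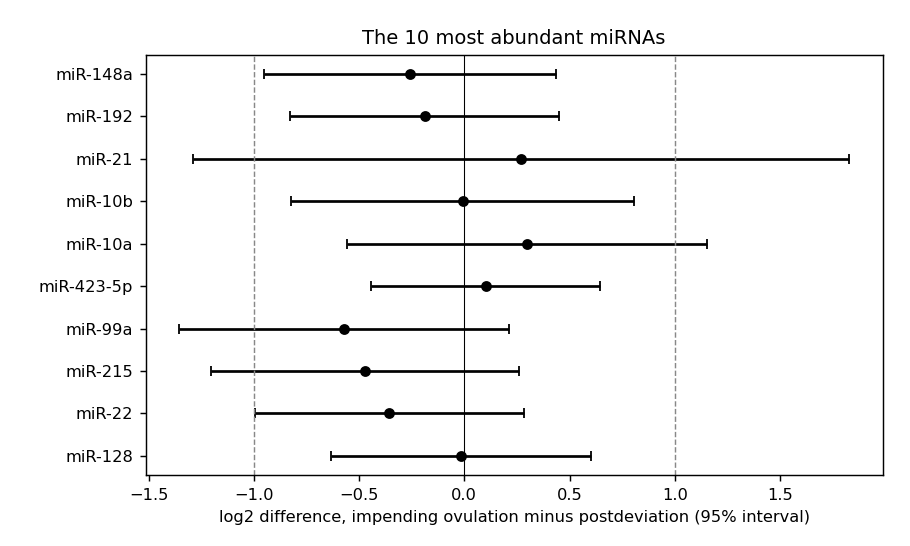
Log2 difference, IMP minus PostDEV, with its 95% interval from the limma fit for the 10 most abundant miRNAs, most abundant at the top; dashed lines mark a 2-fold difference. The bar of miR-423-5p is the shortest and that of miR-21 the longest, and every bar includes 0.

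miR-21, a miRNA that LH raises in mouse granulosa cells and that protects them from apoptosis, ranked next in abundance after miR-148a and miR-192. It had 42636, 39529, 76684 and 149687 scaled reads in IMP, against 24882, 88832, 27966 and 147878 in PostDEV. High and low libraries occurred in both stages, and the spread within each stage exceeded the difference between them (0.27 ± 0.75 log2, SE, limma adjusted p = 0.931). The mouse LH-responsive miR-132 was scarce, with 283, 0, 63.5 and 74.3 scaled reads in IMP, against 14.4, 0, 0 and 17.9 in PostDEV. That is 31 reads in IMP and 2 in PostDEV, a depth-adjusted read ratio of 15.8 with a 95% counting interval of 4.02 to 136, and limma gave an adjusted p of 0.497. IMP 1 held 19 of the 31 reads, and without it the ratio was 8.09 (1.80 to 74.4 by counting). Counting intervals cover counting error only, since reads without molecular identifiers are not independent molecules, and they leave out the spread between follicles. miR-212, made from the same transcript as miR-132, was above 0 in only 1 of the 8 libraries and was not tested.

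The miRNAs known as regulators of granulosa steroid output showed no difference beyond their spread. miR-378, which lowers aromatase in pig granulosa cells, had 9022, 7752, 9966 and 9707 scaled reads in IMP, against 10980, 9161, 8861 and 9408 in PostDEV. The groups overlapped and the interval was among the tight ones (-0.08 log2, 95% interval -0.66 to 0.51). Of the granulosa regulators 2 were tested, both with fitted values below 0 and neither past the threshold. Their median was -0.29 log2, and it stayed below 0 with every other scaling in limma. With the count tests it was above 0 (0.20 with edgeR and TMM, 0.38 with edgeR on the deposited scale, 0.32 with DESeq2). The other tested member, miR-224, had 26 reads in IMP and 12 in PostDEV, a depth-adjusted read ratio of 2.21 (1.08 to 4.81 by counting). Its mean was higher in IMP too, at 74.8 against 45.2 scaled reads in PostDEV. It was at 0 in the IMP 2 library, and its fitted limma value was -0.50 log2. miR-383, a granulosa miRNA in the mouse, was above 0 in 3 of the 8 libraries and was not tested.

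miR-155 had the smallest p of all. It is made from the BIC transcript and is best known from activated lymphocytes and macrophages. It had 2237, 1026, 1714 and 297 scaled reads in IMP, against 130, 370, 65.9 and 269 in PostDEV. Of the IMP libraries 3 lay above every PostDEV library, and the IMP 4 library lay inside the PostDEV range. The difference was 2.60 ± 0.70 log2 (SE), a 6.06-fold higher level in IMP on the log2(scaled reads + 1) scale, with a limma adjusted p of 0.239. DESeq2 gave an adjusted p of 0.0047, edgeR with TMM scaling 0.0787, and limma 0.0282 without the IMP 4 library and up to 0.502 (without PostDEV 3) when another library was left out.

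Other leukocyte markers stood apart less from their spread. The 8 leukocyte markers listed include miR-155, and so do the counts, median and sums that follow. Of the 8, 7 were tested, 5 with fitted values above and 2 below 0, and none passed the threshold. Their median was 0.18 log2 (0.014 to 0.38 over the other scalings and count tests) beside 0.08 over all 207 miRNAs. Their summed level ran from 5597 to 9067 scaled reads in IMP and from 4490 to 6666 in PostDEV. The mean sum was 7166 in IMP and 5656 in PostDEV, of which miR-155 made up 1319 and 209. None of the 8 was at 0 in all 8 libraries. miR-146a, an inhibitor of innate immune signalling, had 5831, 4075, 4380 and 3409 in IMP, against 3785, 3311, 4562 and 4928 in PostDEV, with overlapping groups and a limma adjusted p of 0.939. The part of blood cells in the miR-155 values was not tested.

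The 12 smallest p included miR-200c of the miR-200 family, miR-96 and miR-183 of the miR-183 cluster and miR-34c of the miR-34 and miR-449 family. These 3 lists held 10 of the 207 miRNAs tested and are taken up here because they held such miRNAs. Other lists, such as the let-7 family and the DLK1-DIO3 cluster, held members of the 12 too, so this is no test of the lists. The miR-200 family keeps epithelial cells from turning mesenchymal by repressing ZEB1 and ZEB2. Of its 5 members, all tested, 3 had fitted values above 0 and 2 below, from -1.67 to 2.02 log2 with a median of 1.03, and none passed the threshold. miR-200c had 462, 598, 1333 and 2294 scaled reads in IMP, against 130, 159, 296 and 502 in PostDEV. All IMP libraries but 1 exceeded the highest PostDEV library, and the difference was 2.02 ± 0.60 log2 (SE, 4.06-fold, limma adjusted p = 0.239). The lowest IMP library, at 462, lay within the PostDEV range, and DESeq2 gave an adjusted p of 0.0181.

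Within the family the members did not share one pattern. miR-200b had 1745, 2308, 1981 and 3951 scaled reads in IMP, against 791, 825, 725 and 2133 in PostDEV, with 2 IMP libraries above every PostDEV library (1.24 ± 0.50 log2, SE, limma adjusted p = 0.328). miR-200a, a member of the same cluster as miR-200b, had 1417, 940, 876 and 2761 in IMP, against 921, 1883, 659 and 3029 in PostDEV. Its groups overlapped almost wholly, with a difference of -0.03 ± 0.57 log2 (SE, limma adjusted p = 0.984). miR-141, the cluster partner of miR-200c, had 44.7, 57.0, 1587 and 138 in IMP, against 14.4, 84.6, 65.9 and 376 in PostDEV, so that its higher mean in IMP came from the IMP 3 library alone.

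The miR-183 cluster, best known from sensory epithelia and also studied in granulosa cells of cattle, had all 3 members with fitted values above 0 and none past the threshold. miR-183 had 1342, 2280, 2146 and 2092 scaled reads in IMP, against 1410, 476, 1005 and 735 in PostDEV. The IMP 1 library lay just under the highest PostDEV library and the other 3 above it (1.20 ± 0.47 log2, SE, limma adjusted p = 0.328). miR-182 had 358, 1197, 813 and 2177 in IMP, against 561, 296, 428 and 358 in PostDEV, again with 3 IMP libraries above all of PostDEV (1.22 ± 0.59 log2, SE, limma adjusted p = 0.481). miR-96, the scarce member, had 0, 57.0, 140 and 765 in IMP, against 14.4, 0, 0 and 0 in PostDEV. That is 85 reads in IMP and 1 in PostDEV, 86.7-fold after allowing for depth, with a 95% counting interval of 15.1 to 3464. The IMP 4 library held 72 of the 85 reads, and without it the ratio was 20.2 (3.03 to 857 by counting). Its limma adjusted p was 0.267, 0.0181 without the IMP 1 library, where it was at 0, 0.454 without IMP 4 and 0.533 without PostDEV 2; DESeq2 gave 0.0047.

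The miR-34 and miR-449 family, made in multiciliated epithelium and induced by p53, had 2 of its 6 listed members tested. miR-34c had 283, 0, 165 and 1816 scaled reads in IMP, against 0, 10.6, 0 and 17.9 in PostDEV. It was absent from the IMP 2 library and high in IMP 4, and its 203 reads in IMP stood against 2 in PostDEV, 104-fold after allowing for depth (28.3 to 861, 95% counting interval). The IMP 4 library held 171 of the 203 reads, and without it the ratio was 24.8 (6.33 to 214 by counting). The limma adjusted p was 0.306, 0.0207 without the IMP 2 library, 0.498 without IMP 4 and 0.502 without PostDEV 3; DESeq2 gave 0.0025. miR-34a had 14.9, 0, 12.7 and 191 in IMP, against 43.2, 10.6, 0 and 0 in PostDEV, with overlapping groups.

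Markers of stratified epithelium were measured beside these miRNAs. miR-205, the marker of basal epithelial cells, had 432, 199, 76.2 and 74.3 scaled reads in IMP, against 317, 666, 231 and 1685 in PostDEV. Its values were lower in IMP, with 3 IMP libraries below all of PostDEV, and the limma adjusted p was 0.487. The 2 stratified epithelium markers summed to 216 to 477 in IMP and 231 to 1810 in PostDEV, and neither was at 0 throughout. Their median was 0.06 log2, and it stayed above 0 with every other scaling in limma. With the count tests it was below 0 (-0.56 with edgeR and TMM, -0.46 with edgeR on the deposited scale, -0.45 with DESeq2). The part of epithelial cells in the miR-200, miR-183 and miR-34 values was not tested.

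**Figure D3:**
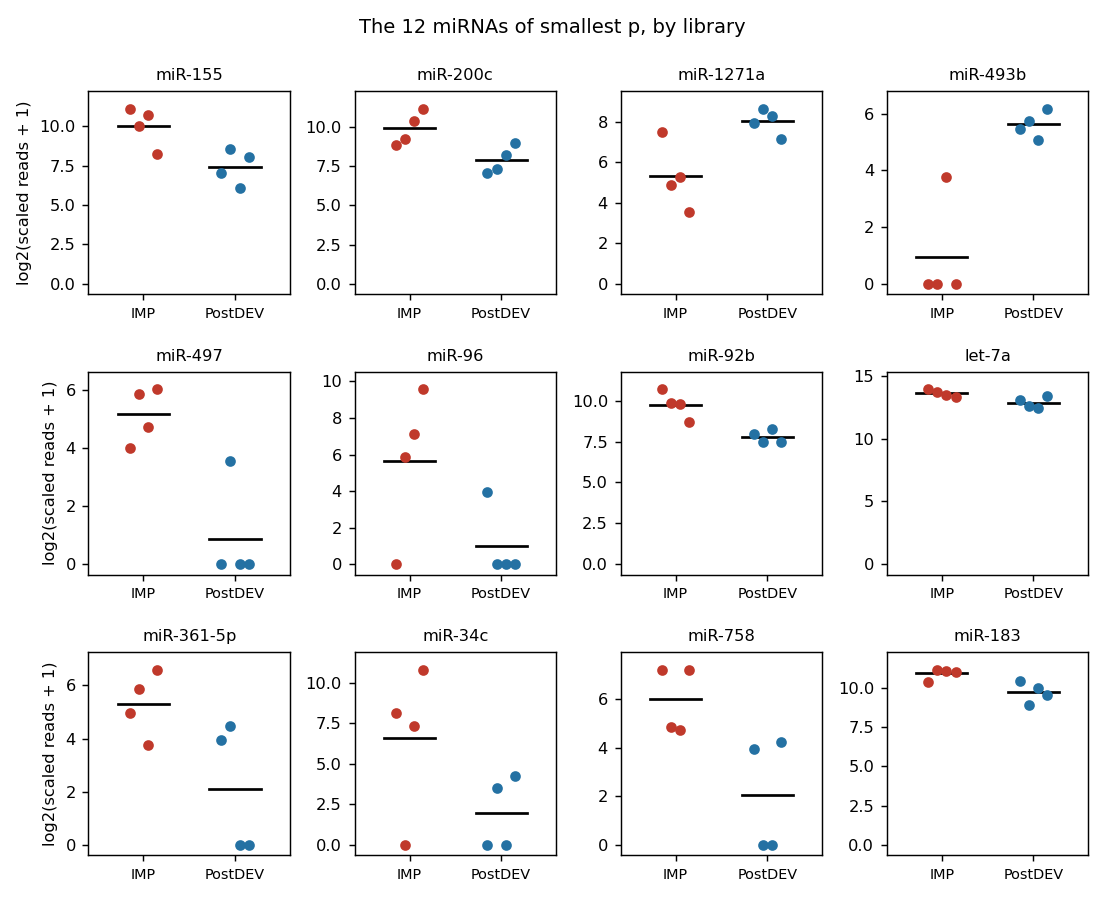
Each library's value of the 12 miRNAs of smallest p as log2(scaled reads + 1), with IMP left in red and PostDEV right in blue and a bar at each group mean. Only miR-493b, miR-497, miR-92b and miR-758 show no overlap between the 4 points of each stage; none of the 12 passed the adjusted threshold.

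The let-7 family, which marks differentiated cells and is matured under the control of LIN28, had 6 of 7 members with fitted values above 0 and a median of 0.49 log2, and none passed. let-7a had 15659, 12996, 11084 and 10238 scaled reads in IMP, against 8563, 6295, 5501 and 10430 in PostDEV. All but the lowest IMP library exceeded the highest PostDEV library, and the difference was 0.73 ± 0.26 log2 (SE, 1.65-fold, limma adjusted p = 0.282). let-7f had 7546, 8208, 12214 and 15739 in IMP, against 4878, 6199, 3245 and 8548 in PostDEV, with a difference of 0.96 ± 0.40 log2 (SE, limma adjusted p = 0.354). let-7g had 8202, 12939, 22205 and 21112 in IMP, against 8922, 12917, 7494 and 16146 in PostDEV, a difference of 0.46 ± 0.34 log2 (SE, limma adjusted p = 0.613). The family summed to 47930 to 60002 in IMP and to 27752 to 48636 in PostDEV, with a small overlap between the lowest IMP and the highest PostDEV library that was gone with equal library totals and with the median of ratios.

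In the miR-17-92 cluster and its paralogs, which promote proliferation, 9 of 11 tested members had fitted values above 0, with a median of 0.46 log2 and none past the threshold; with edgeR and TMM it was 6 of 11 with a median of 0.22. miR-92b had 1670, 912, 876 and 414 scaled reads in IMP, against 245, 180, 313 and 179 in PostDEV. Every IMP library exceeded every PostDEV library, a difference of 1.95 ± 0.70 log2 (SE, 3.86-fold, limma adjusted p = 0.282). Such a complete separation with IMP above PostDEV occurred for 5 of the 207 miRNAs (2.42%), and with IMP below for 4 (1.93%). With equal library totals the counts were 8 above and 4 below, and with the median of ratios 9 and 5. miR-92a, with the same seed as miR-92b, was more abundant and closer between stages, with 10469, 9120, 8252 and 6308 in IMP, against 6778, 6506, 6736 and 6487 in PostDEV (0.34 ± 0.25 log2, SE, limma adjusted p = 0.613). miR-20a had 328, 370, 1447 and 1359 in IMP, against 1065, 159, 214 and 340 in PostDEV, with overlapping groups.

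The imprinted DLK1-DIO3 cluster, the largest miRNA cluster of eutherian mammals and expressed from the maternal chromosome, gave differences in both directions. Of its 52 listed names 14 were at 0 in all 8 libraries and 28 were tested. Fitted values were above 0 for 9 and below 0 for 19, with a median of -0.83 log2 beside 0.08 over all 207 miRNAs, and none passed. The summed level of the cluster was 14241 to 27037 scaled reads in IMP and 16953 to 43399 in PostDEV.

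The separated members of this cluster ran both ways. miR-758 had 149, 28.5, 25.4 and 149 scaled reads in IMP, against 14.4, 0, 0 and 17.9 in PostDEV, that is 27 and 2 reads (13.8-fold after allowing for depth, 3.46 to 119 by counting; limma adjusted p = 0.306). miR-379, named after its values were seen, had 611, 513, 521 and 510 in IMP, against 201, 391, 264 and 269 in PostDEV (0.97 ± 0.47 log2, SE, limma adjusted p = 0.481). Both had every IMP library above every PostDEV library in scaled reads. For miR-758 this rested in part on the scale per library, since the 28.5 in IMP 2 and the 17.9 in PostDEV 4 are 1 read each. In the opposite direction, miR-493b had 0, 0, 12.7 and 0 in IMP, against 43.2, 52.9, 32.9 and 71.7 in PostDEV. It rested on 1 read in IMP and 14 in PostDEV, 0.0728 times the PostDEV level after allowing for depth (0.00172 to 0.479 by counting; limma adjusted p = 0.267). miR-376a had 1 read in IMP and 7 in PostDEV, with a counting interval of the ratio that includes 1 (0.00323 to 1.13; limma adjusted p = 0.354). Its 10.6 scaled reads in IMP 4 and 14.4 in PostDEV 1 are 1 read each, so its separation also rested on the scale.

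The abundant members of the cluster overlapped between stages. miR-409-3p had 8724, 7837, 5878 and 3876 scaled reads in IMP, against 9512, 14017, 22548 and 6469 in PostDEV, a difference of -0.91 ± 0.53 log2 (SE, limma adjusted p = 0.551). miR-127, which is antisense to the imprinted gene RTL1, had 6651, 5643, 2857 and 3228 in IMP, against 2475, 2888, 3887 and 3602 in PostDEV, a difference of 0.45 ± 0.35 log2 (SE, limma adjusted p = 0.613). miR-543 had 2446, 2337, 1689 and 998 in IMP, against 1900, 4031, 4990 and 1595 in PostDEV (limma adjusted p = 0.613). All 3 overlapped between the stages.

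Of the miRNAs with lower values in IMP, miR-1271a had the smallest p. It had 179, 28.5, 38.1 and 10.6 scaled reads in IMP, against 245, 402, 313 and 143 in PostDEV, or 17 and 82 reads. All but the IMP 1 library lay below every PostDEV library, and the difference was -2.72 ± 0.82 log2 (SE, limma adjusted p = 0.239). Without the IMP 1 library the limma adjusted p was 0.0396, and with another library left out it reached 0.502 (without PostDEV 3). miR-676, named after its values were seen, had 149, 85.5, 63.5 and 42.5 in IMP, against 273, 286, 362 and 197 in PostDEV. Every IMP library lay below every PostDEV library, with a difference of -1.82 ± 0.77 log2 (SE, limma adjusted p = 0.354).

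miR-215, a p53-responsive miRNA of gut and liver that shares its seed with miR-192, was the most abundant miRNA with fully separated groups. It had 26888, 27930, 27957 and 27187 scaled reads in IMP, against 39589, 35979, 43102 and 34479 in PostDEV. The difference was -0.47 ± 0.35 log2 (SE, limma adjusted p = 0.613), small beside the spread pooled over the 5 stages. miR-192 had 84974, 86126, 74958 and 78863 in IMP, against 94130, 99665, 94720 and 82147 in PostDEV, with overlapping groups (-0.19 ± 0.31 log2, SE, limma adjusted p = 0.861). miR-194, made from the same transcripts as both, had 268, 28.5, 419 and 627 in IMP, against 374, 561, 527 and 358 in PostDEV, again with overlap. The liver miRNA miR-122 had 5220, 16501, 10462 and 11799 in IMP, against 11700, 6940, 6423 and 20877 in PostDEV, with a difference of -0.01 ± 0.48 log2 (SE).

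The miR-192 and liver list as a whole summed to 113795 to 130671 scaled reads in IMP and to 137861 to 145793 in PostDEV. All 4 tested members had fitted values below 0, with a median of -0.33 log2, and none passed. The sums did not overlap on the deposited scale but did overlap when libraries were brought to equal totals or to equal medians of ratios.

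The miR-23, miR-27 and miR-24 clusters, with roles in vessel growth and lipid metabolism, had fitted values below 0 for all 5 tested members, with a median of -0.30 log2 and none past the threshold. miR-27b had 11050, 9433, 11668 and 13285 scaled reads in IMP, against 15125, 18143, 10772 and 18780 in PostDEV, a difference of -0.44 ± 0.23 log2 (SE, limma adjusted p = 0.481). miR-27a, with the same seed, had 11796, 13423, 11261 and 12117 in IMP, against 10923, 15509, 13012 and 14874 in PostDEV, and its interval of -0.67 to 0.37 log2 excludes a 2-fold difference. miR-24 had 19118, 20349, 15096 and 14273 in IMP, against 18276, 23686, 21642 and 20698 in PostDEV (limma adjusted p = 0.613). The stages overlapped for each of the 3. The summed level of the clusters did not overlap, at 39091 to 43776 in IMP and 45676 to 58068 in PostDEV, nor with the median of ratios, but it did overlap with equal library totals.

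miR-497 and miR-361-5p were scarce miRNAs with higher values in IMP. miR-497, of the growth-restraining miR-15 and miR-16 seed family, had 14.9, 57.0, 25.4 and 63.7 scaled reads in IMP, against 0, 10.6, 0 and 0 in PostDEV. The groups did not overlap but rested on 11 reads in IMP and 1 in PostDEV (11.2-fold after allowing for depth, 1.63 to 483 by counting; limma adjusted p = 0.267). The 14.9 in IMP 1 and the 10.6 in PostDEV 2 are 1 read each, so the separation rested in part on the scale per library. IMP 4 held 6 of the 11 reads, and without it the ratio was 7.75 with a counting interval that includes 1 (0.868 to 367). miR-361-5p had 14 reads in IMP and 3 in PostDEV (4.76-fold, 1.33 to 25.8 by counting, limma adjusted p = 0.282), with overlapping groups. For miR-361-5p, IMP 4 held 9 of the 14 reads, and without it the ratio was 2.58 with a counting interval that includes 1 (0.503 to 16.6). miR-1379, named after its values were seen, had 24 and 8 reads with every IMP library above every PostDEV library (limma adjusted p = 0.613). Its lowest IMP value was 57.0 scaled reads in IMP 2, and its highest PostDEV value 49.4 in PostDEV 3. A single read is worth 28.5 in IMP 2 and 16.5 in PostDEV 3, so this separation too rested on the scale.

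Markers of red cells overlapped between the stages. Of the red cell markers 3 were tested, with a median of 0.17 log2. This median was below 0 with edgeR and TMM (-0.14) and with DESeq2 (-0.03), and above 0 with the other scalings. The red cell miRNA miR-144 was at 0 in all 8 libraries. The listed markers summed to 14337 to 21050 scaled reads in IMP and 9081 to 23369 in PostDEV. miR-486-5p, from the red cell gene ANK1, had 17016, 15903, 19857 and 13381 in IMP, against 8634, 21719, 13473 and 14874 in PostDEV, and miR-451, a Dicer-independent red cell miRNA, had 209, 1054, 1143 and 563 in IMP, against 331, 1312, 428 and 1057 in PostDEV. Both overlapped between the stages.

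Vessel and stroma markers had no call, with most fitted values below 0. Of 7 endothelium and platelet markers 6 had fitted values below 0, with a median of -0.28 log2 (-0.54 to -0.18 over the other scalings and count tests). miR-126-3p, the main endothelial miRNA, had 1238, 2365, 3072 and 1943 scaled reads in IMP, against 1194, 3798, 1614 and 3118 in PostDEV (-0.10 ± 0.48 log2, SE, limma adjusted p = 0.962). miR-143, of smooth muscle and fibroblasts, had 5055, 6925, 4190 and 49414 in IMP, against 6231, 16070, 17508 and 23476 in PostDEV. Its cluster partner miR-145 had 74.6, 57.0, 63.5 and 1094 in IMP, against 230, 127, 445 and 412 in PostDEV. For both, the IMP 4 library was the highest of the 8. The other 3 IMP libraries lay below every PostDEV library for miR-145, and 2 of them did for miR-143.

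Skeletal muscle and neural markers varied widely from library to library. miR-206, made in skeletal muscle, had 2819, 8664, 1244 and 1402 scaled reads in IMP, against 2490, 254, 3640 and 842 in PostDEV. The muscle list summed to 1912 to 11909 in IMP and 1555 to 5412 in PostDEV, with 5 tested members, 3 listed names at 0 throughout and a median whose sign turned with the scaling. Of the neural and endocrine markers 4 were tested, with a median of 2.25 log2 (1.23 with edgeR and TMM), none passed, and 1 listed name was at 0 throughout. They summed to 31775 to 55660 in IMP and 24723 to 34811 in PostDEV.

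Among those 4, miR-9a, a brain-enriched miRNA, had 8306, 28044, 3187 and 2220 scaled reads in IMP, against 9383, 21.2, 9750 and 215 in PostDEV. Its fitted difference of 2.97 ± 2.06 log2 (SE, limma adjusted p = 0.613) carried an interval of -1.32 to 7.25, and was 1.24 without the PostDEV 2 library and 0.92 with edgeR and TMM. miR-7, of pancreatic islets and pituitary, had 1268, 2536, 33480 and 14390 in IMP, against 5972, 529, 939 and 7294 in PostDEV (1.54 ± 1.13 log2, SE, limma adjusted p = 0.613). For both, libraries of a stage differed by more than the stage means, and the stages overlapped.

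**Figure D4:**
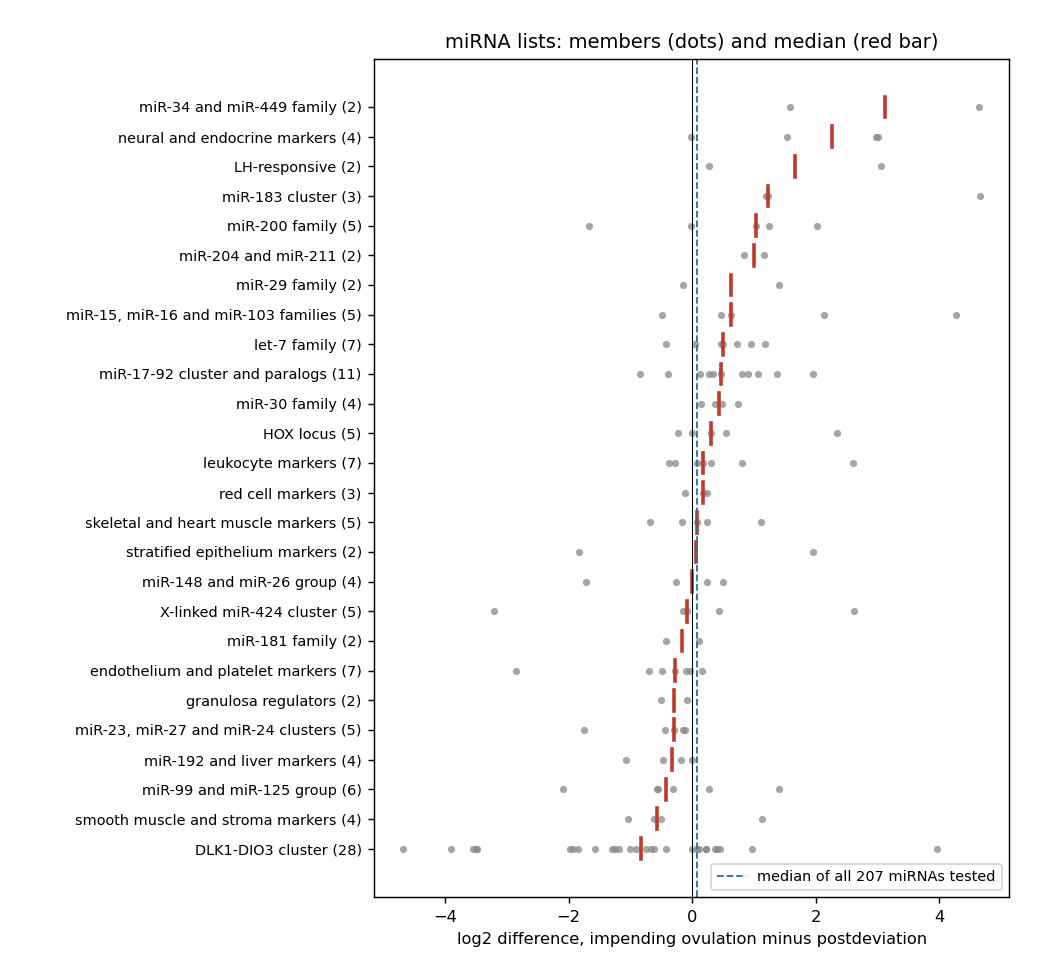
Log2 difference, IMP minus PostDEV, of each tested member (grey dots) of the miRNA lists with 2 or more tested members (number in brackets), with the list median as a red bar and the median of all 207 miRNAs as a dashed line. No member passed the adjusted threshold; the DLK1-DIO3 members spread widely on both sides of 0.

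The remaining groups gave small or mixed differences with no member past the threshold. In the miR-30 family, which is broadly expressed, all 4 tested members had fitted values above 0 with a median of 0.43 log2 (3 of 4 with quantile normalization, and a median of 0.23 with edgeR and TMM), and miR-30d had 5398, 7096, 11604 and 8241 scaled reads in IMP, against 4130, 5575, 4628 and 8835 in PostDEV. miR-100, a relative of miR-99a, had 8724, 14250, 49172 and 14114 in IMP, against 4821, 4200, 6852 and 12795 in PostDEV (1.40 ± 0.75 log2, SE, limma adjusted p = 0.487). miR-204b had 731, 1795, 457 and 372 in IMP, against 576, 74.1, 626 and 323 in PostDEV, with overlap. miR-483, from an intron of the imprinted growth factor gene IGF2, had 582, 627, 711 and 382 in IMP, against 1007, 899, 1515 and 430 in PostDEV, with overlap.

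The balance between the 2 arms of a precursor was compared for 14 arm pairs with both arms measured. None passed an exact two-sided permutation test of the log2 ratio of 5p to 3p, but with 4 libraries a stage a lone pair could not fall below an adjusted p of 0.4. The lowest p belonged to miR-340, with a log2 ratio of 0.77 ± 1.005 in IMP and 2.15 ± 0.56 in PostDEV (SD, n = 4 each, exact permutation p = 0.0857, adjusted over 14 pairs 0.55). miR-423 had a ratio of 3.49 ± 0.21 in IMP and 3.13 ± 0.55 in PostDEV (SD, n = 4 each, exact permutation p = 0.314).

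Levels in the other 3 stages place these values, as a description with no test, because they share the IMP and PostDEV libraries. miR-200c averaged 1419 scaled reads before deviation (PreDEV), 641 at deviation (DEV), 272 in PostDEV, 309 in preovulatory follicles (PreOV) and 1172 in IMP. miR-34c averaged 2803, 495, 7.13, 57.1 and 566 and miR-96 averaged 270, 56.1, 3.60, 35.4 and 240 over the same order of stages. All 3 had their lowest mean in PostDEV, and the IMP means did not exceed those of PreDEV follicles. These 3 were named for a small p with IMP above PostDEV, a choice that favours a low PostDEV mean.

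miR-155 and miR-758 had another order. miR-155 averaged 362 in PreDEV, 226 in DEV, 209 in PostDEV, 621 in PreOV and 1319 scaled reads in IMP, the highest mean of the 5 stages. miR-758 was at 0 in all 4 PreDEV libraries and averaged 3.29 in DEV, 8.08 in PostDEV, 54.3 in PreOV and 87.9 in IMP. let-7a averaged 8683, 6435, 7697, 10614 and 12494 from PreDEV to IMP, and miR-215 averaged 12011, 23578, 38287, 18944 and 27490.3, with its highest mean in PostDEV. miR-155, miR-758 and let-7a were named for a small p with IMP above PostDEV, a choice that favours a high IMP mean. For miR-215 the groups were separated with PostDEV above IMP, which likewise favours a high PostDEV mean.

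**Figure D5:**
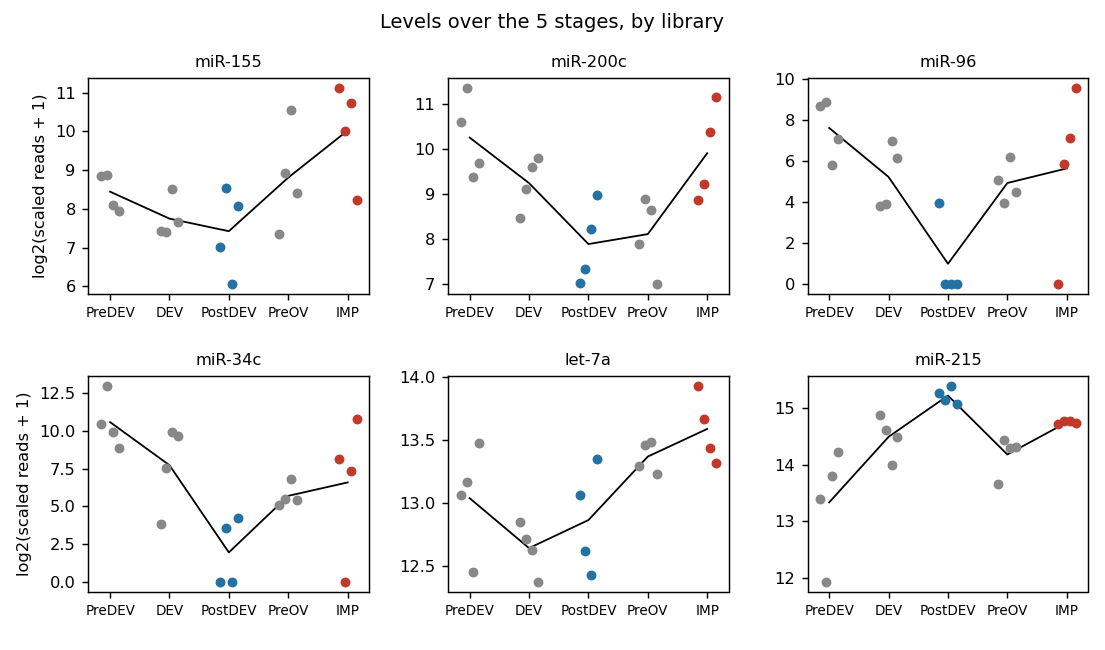
Level of 6 miRNAs in each library as log2(scaled reads + 1), over the stages PreDEV, DEV, PostDEV (blue), PreOV and IMP (red), with the other stages in grey and a line through the stage means. miR-200c, miR-34c and miR-96 have their lowest mean in PostDEV, miR-155 and let-7a their highest in IMP, and miR-215 its highest in PostDEV. Most of these miRNAs were named for their IMP and PostDEV values, which favours such orders.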

How the data were processed

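Small RNA libraries (TruSeq Small RNA kit, vesicles collected by ultracentrifugation, per the labels' protocols) were deposited as 1 table named CPM. The deposited values are a read signal scaled by 1 factor per library, not a rate per fixed total: dividing a column by its smallest value above 0 gave whole numbers for all values within 1e-06 (the PostDEV 2 column has few low values, so it was checked less closely). bcl2fastq, Bowtie2 2.2.2, DESeq2 and the build EquCab3.0 are named, without role or order, in the submitters' processing notes; the authors' scaling is not stated there.

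miRNAs above 0 in at least 4 of the 8 libraries were tested with limma 3.58.1 (R 4.3.3, intensity trend) on log2(value + 1), in 1 fit of all 20 libraries with a mean per stage and a shared spread, two-sided, Benjamini-Hochberg over 207 miRNAs. For low miRNAs, fold changes on this scale can lie above or below the read ratio. For miR-497 the fold was 19.2 against a read ratio of 11.2, and for miR-96 it was 25.2 against 86.7. Library measures and arm ratios were compared by exact permutation over 70 arrangements (Python 3.11.15, scipy 1.17.1). edgeR 4.0.16 and DESeq2 1.42.0 on recovered reads, other scalings, pseudocounts, filters and left-out libraries were alternatives.

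None of the 12 pairs of libraries within these 2 stages agreed within sampling noise. Members and miRNA lists were chosen with earlier results of these data known. miRNAs named were the 12 of smallest p (since fewer than 5 passed), the 10 most abundant, those above 0 in all 4 libraries of a stage and in at most 1 of the other, and up to 4 members of a list; exceptions are stated. No sequences were used here.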

Additional observations from a re-analysis of the deposited data

Results flagged for a closer look

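In groups of 4 libraries, 16 of 138 checked had a highest value far from the other 3, at a limit that chance passes in about 1 in 20 groups of normally distributed values. Scaled reads are skewed, and 4 of the 16 are a single read beside 3 zeros, which always passes, so the count is not set against that rate. The IMP 4 library held 5 of these values. They were miR-143 at 49414 scaled reads (the other IMP libraries 4190 to 6925), miR-145 at 1094 (57.0 to 74.6), miR-34c at 1816 (0 to 283), miR-34a at 191 (0 to 14.9) and miR-376a at 10.6 (0 in the others). The IMP 3 library held 3, miR-100 at 49172 (8724 to 14250), miR-141 at 1587 (44.7 to 138) and miR-493b at 12.7 (0 in the others). IMP 1 held miR-1271a at 179 (10.6 to 38.1) and miR-379 at 611 (510 to 521).

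Among PostDEV libraries, PostDEV 2 had 89957 recovered reads, against 55118 to 58485 in the others, miR-497 at 10.6 scaled reads (0 in the others) and miR-376a at 42.3 (14.4 to 17.9). PostDEV 1 had miR-96 at 14.4 (0 in the others), PostDEV 3 had miR-148a at 292428 (167125 to 185728) and PostDEV 4 had miR-200b at 2133 (725 to 825).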

How the results depend on the processing

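The count of miRNAs past the threshold was 0 under every alternative except DESeq2, with 4, and the leaving out of single libraries, with 0 to 2. Without IMP 1 these were miR-1271a (lower) and miR-96 (higher), without IMP 2 miR-34c and without IMP 4 miR-155 (both higher). Higher groups without overlap numbered 8 with equal library totals and 9 with the median of ratios. A fit with the replicate number as a block gave 0 calls. Same-numbered libraries correlated at 0.001, -0.07, -0.29 and 0.28 in their deviations from the stage means. Whether the numbers pair the libraries cannot be told from these values, since no label ties a library to a mare. The median of all differences was -0.10 log2 with edgeR and TMM, 0.05 with edgeR on the deposited scale and 0.08 with limma. The causes of these moves were not tested.

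Differences near 0 changed sign in places. With edgeR on the deposited scale and with DESeq2, miR-145 was 0.15 and 0.066 log2 and miR-143 was 0.053 and 0.018. With edgeR and TMM, miR-423-5p was -0.037, miR-21 -0.055 and miR-146a -0.033. With quantile normalization, miR-323-3p was -0.024, miR-146a -0.043 and miR-10b 0.012. With array weights, miR-126-3p was 0.069, miR-451 0.044 and miR-200a 0.078. With equal library totals, miR-128 was 0.0088, miR-10b 0.018 and miR-122 0.017, and with edgeR on the deposited scale miR-10b was 0.014. Thinned to 29862 reads, the difference in miRNAs above 0 was 0.375.

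When single libraries were left out, ranges that crossed 0 were -0.083 to 1.81 log2 for miR-141, -0.12 to 0.75 for miR-21, -0.052 to 0.58 for miR-221, -0.059 to 0.20 for miR-146a, -0.39 to 0.17 for miR-126-3p, -0.45 to 0.40 for miR-451, -0.10 to 0.10 for miR-128, -0.38 to 0.36 for miR-200a, -0.14 to 0.15 for miR-10b and -0.24 to 0.34 for miR-122. The 5p to 3p ratio of miR-486 differed by -0.54 to 1.04 log2. Those of library measures were -9440.2 to 9981 recovered reads, -54842 to 5253 in the sum of scaled reads and -11 to 8.33 miRNAs above 0.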

Other observations

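The 4 IMP libraries differed among themselves in the miRNAs of smallest p. IMP 4 held the highest miR-200c, miR-96 and miR-34c (2294, 765 and 1816 scaled reads) and the lowest miR-155 and miR-92b (297 and 414). IMP 1 held the highest miR-155 and miR-92b (2237 and 1670), the lowest miR-200c (462), no miR-96 and the next highest miR-34c (283). IMP 3 ranked next to the highest in miR-155, miR-200c and miR-96 (1714, 1333 and 140). IMP 2 had 1026 of miR-155, 598 of miR-200c, 57.0 of miR-96 and no miR-34c. These are values of 4 libraries, given without a test.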
